A study of Mus musculus with 4 samples.

Results

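The actin assembly and disassembly genes examined here are 47 genes listed by symbol: the Arp2/3 complex, N-WASP and the WAVE complex, Ena/VASP proteins, LIM kinases, profilins, thymosins, capping proteins, cofilins, gelsolin and their partners, and both cytoplasmic actins. All 47 were found among the 23435 gene symbols of the tables that were kept, and all 47 were among the 11361 genes tested. The list was drawn up with earlier results of these data known. RNA came from primary mouse oligodendrocytes, grown as precursor cells and differentiated for 1 day with the thyroid hormone T3, on a mixed strain background. Both control samples (Ctrl, n = 2) are labelled as lncOL1+/+ or lncOL1+/- alike, and which of these each sample carries is not stated. The 2 knockout samples (lncOL1KO) are labelled lncOL1-/-, for the long noncoding RNA lncOL1. Whether the replicates are separate animals or separate cultures is not labelled, and the p-values therefore reflect a spread among libraries that may be technical only.

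Actin monomers join filaments at their growing ends. Profilin delivers monomers, thymosins hold them in reserve, the Arp2/3 complex starts new branches when WASP family proteins activate it, capping protein stops growth, and cofilin and gelsolin sever old filaments. LIM kinases switch cofilin off and slingshot phosphatases switch it on again. In oligodendrocytes, branched assembly is known for driving the outgrowth of processes, and filament loss through cofilin and gelsolin is known for accompanying the wrapping of myelin. Of the 47 genes, 27 were counted as assembly genes, 12 as disassembly genes and 8 as neither (actins, thymosins and capping genes).

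Values are FPKM, which divides fragments by transcript length and library size, so levels can be compared between genes. The tables give no read counts, and the depth behind a value is unknown. The knockout target lncOL1 (9630013A20Rik) was at 28.9 and 34.0 FPKM in control and at 5.54 and 5.06 FPKM in knockout, so that 16.9% of the control level was still counted there. Oligodendrocyte markers summed to 10787 and 10907 FPKM in control and to 8988 and 9183 FPKM in knockout. Among them the myelin gene Mbp fell from 2683 and 2655 FPKM to 1501 and 1520 FPKM (log2 difference -0.82, limma adjusted p = 0.00504). It was the 1 marker of 11 called by limma. Of the others 5 had a negative difference and 5 a positive one, among them Olig2 and Mog, which were higher in both knockout libraries. The authors' deposited table calls Mbp lower too, and with it Mag, Myrf and Enpp6 (q listed as 0, q = 0.0281 and q = 0.00572). Its log2 fold change for Mag is -0.54, and it calls none of these markers higher. Markers of other cells were present too. Astrocyte markers summed to 586.9 and 556.05 FPKM in control and 549.8 and 529.96 FPKM in knockout, and microglia and macrophage markers to 15.4 and 17.1 FPKM in control and 33.5 and 38.2 FPKM in knockout. Of the 9 astrocyte markers limma called 0. The authors' deposited table calls Gfap, Slc1a2 and Gja1 among them lower (q = 0.0408, 7.95e-05 and 0.0159) and none higher. Neuron markers summed to 128.1 and 136.5 FPKM in control and 146.9 and 147.7 FPKM in knockout. Limma called 0 of the 4 neuron markers tested, and the authors' deposited table calls 1, Dcx, higher (q = 0.0227). Fibroblast and mural cell markers summed to 13.2 and 14.0 FPKM in control and 22.8 and 22.8 FPKM in knockout. In bulk RNA, fewer cells of a type and less RNA per cell cannot be told apart.

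These were abundant transcripts. Their median level was 73.2 FPKM, against 11.2 FPKM over all genes tested, and 43 of the 47 lay above that second value. Together they took 2.71% to 2.84% of the summed FPKM of each library. Levels spanned a wide range, from Actg1 at a mean of 1980.5 FPKM over the 4 libraries to Ssh2 at 5.11 FPKM. Only Actg1, Actb and Cfl1 were over 1000 FPKM on this mean, and only Limk1, Ssh1 and Ssh2 were under 10 FPKM. The libraries of a group lay close together, with a median coefficient of variation over the members of 3.58% in control and 3.40% in knockout.

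**Figure D1:**
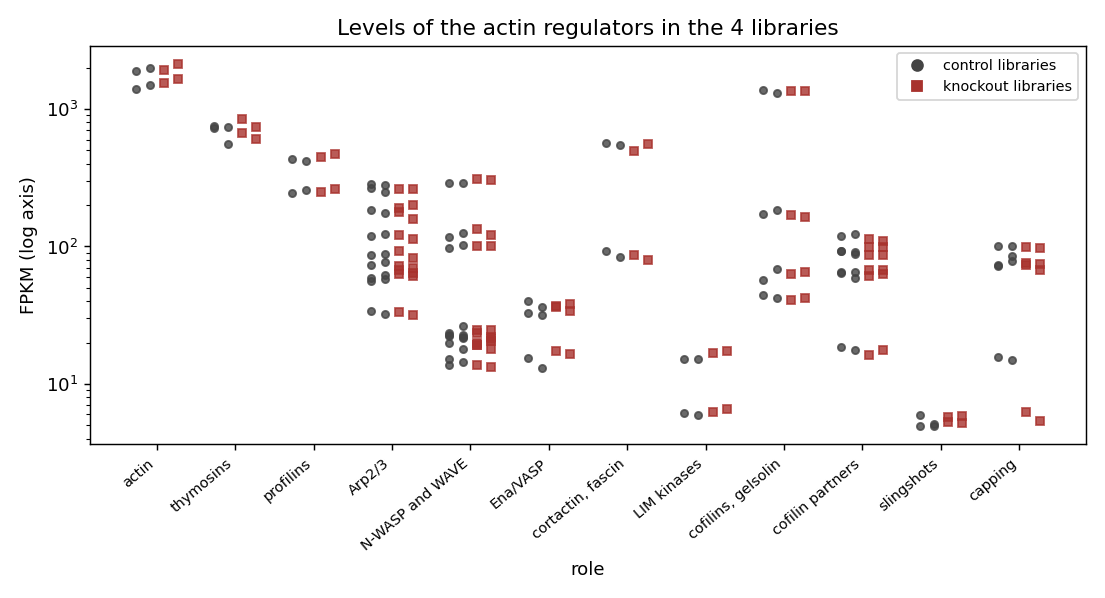
FPKM (log axis) of the 47 genes by role, with 1 point for each gene and library: grey circles are the 2 control and red squares the 2 knockout libraries. Actins and Cfl1 sit at the top and LIM kinases and slingshots at the bottom; Lrrc16a, in the capping column, is the gene whose groups are visibly apart, at 15.8 and 14.98 against 6.25 and 5.38 FPKM.

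Across the list, 1 gene fell in the knockout, 0 rose and 46 did not pass the test. A gene is called higher or lower where the p of limma's moderated test, adjusted by Benjamini-Hochberg over all 11361 genes, is under 0.05. Over all genes tested, 0.783% were called lower and 0.528% higher (89 and 60 genes, 1.31% in either direction). At an unadjusted p under 0.05, 2 of the 47 were lower and 1 was higher, where 6.58% and 7.13% of all genes were. Both knockout libraries lay above both control libraries for 12 members and below them for 10, where 22.6% and 20.7% of all genes did so. The authors' deposited table has a usable test for 46 of the members. It calls 3 of them lower and 0 higher, against 4.04% and 1.74% of its genes (5.78% in either direction).

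The gene that fell was Lrrc16a, now named Carmil1. It encodes CARMIL1, a large leucine-rich repeat protein that binds capping protein and loosens it from filament ends. It lies on chromosome 13, from 24012484 to 24280790 on the minus strand (mm10), and no exon of it is overlapped by a gene of the opposite strand in GENCODE M21. Lrrc16a was at 15.8 and 14.98 FPKM in the control libraries and at 6.25 and 5.38 FPKM in the knockout libraries. Both knockout libraries were far below both control libraries, and the knockout mean was 37.8% of the control mean. The log2 difference, on log2(FPKM + 1), was -1.27 (SE 0.087, 95% interval -1.48 to -1.06, limma adjusted p = 0.00433). In the authors' deposited table its control value is 16.1 FPKM and its knockout value 5.97 FPKM, with a log2 fold change of -1.43 and q listed as 0. Without knockout replicate 2 the limma adjusted p was 0.0557, with a log2 difference of -1.18. With no filter on low values, over 17397 genes, it was 0.0600.

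Neighbours of Lrrc16a were looked at as well. None of the 15 tested genes within 1 Mb of it passed, with log2 differences from -0.71 to 0.17, and 2 of them (the histone genes Hist1h1e and Hist1h3d) had an unadjusted p under 0.05, where 13.7% of all genes tested did. Among 29 tested genes within 5 Mb, 1 was called, the histone gene Hist1h4k, where 1.31% of all genes were. The 3 histone genes were named after their values were seen.

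Capping protein itself, the partner that CARMIL1 acts on, was not called. It is a dimer of an alpha and a beta subunit that closes the growing filament end. Capzb, the beta subunit gene, was at 101.05 and 101.4 FPKM in control and at 99.9 and 97.0 FPKM in knockout. Both knockout values were lower, by little: the log2 difference was -0.04 (95% interval -0.20 to 0.12, limma adjusted p = 0.876). The alpha subunit genes Capza1 and Capza2 had log2 differences of -0.07 and -0.10, with groups that overlapped. The ratio of the summed FPKM of all 3 subunit genes (Capzb, Capza1 and Capza2) to Lrrc16a was 15.6 and 17.7 in control and 39.9 and 44.4 in knockout. The other CARMIL genes did not pass either. Lrrc16b (Carmil3) was at 2.65 and 2.26 FPKM in control and at 2.97 and 3.58 FPKM in knockout (log2 difference 0.31, limma adjusted p = 0.286). Rltpr (Carmil2) was under 1 FPKM in every library and was not tested.

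**Figure D2:**
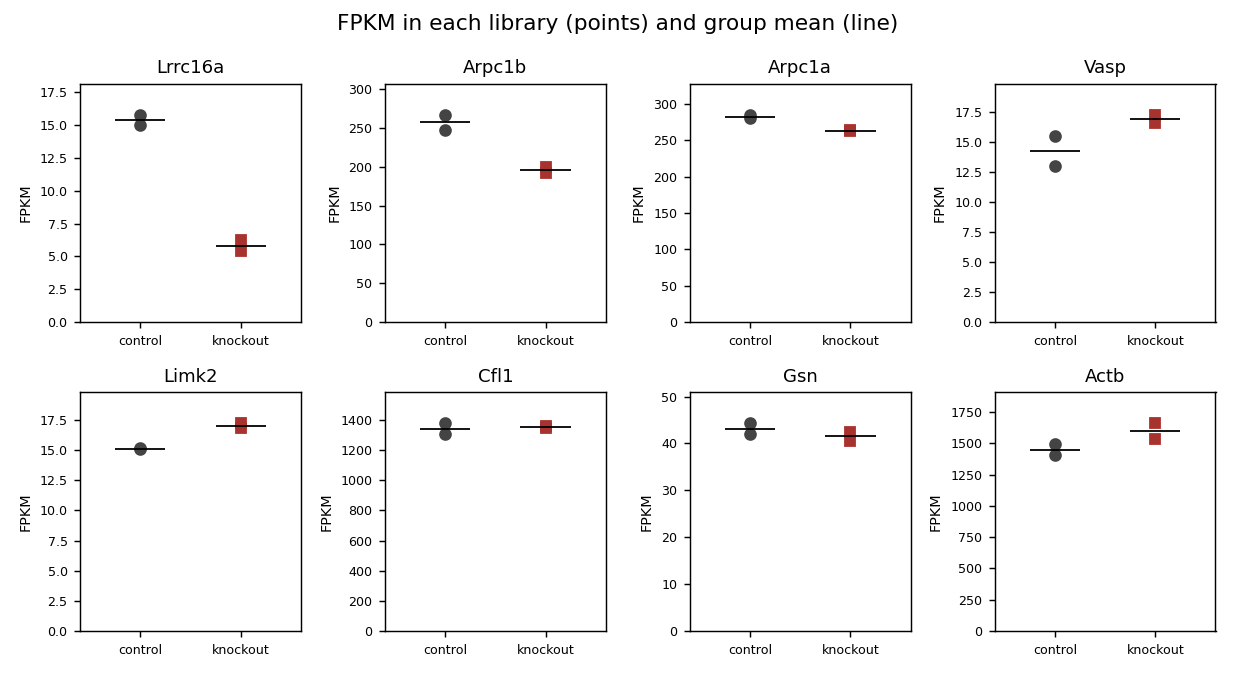
FPKM of 8 genes in each library (grey circles control, red squares knockout), with the mean of the 2 libraries as a line and each axis from 0. The groups of Cfl1 and Gsn overlap and those of the other 6 genes do not; relative to its level, the gap is widest for Lrrc16a, at 37.8% of control, followed by Arpc1b, at 76.2%.

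The Arp2/3 complex starts a new filament as a branch on an existing one. Its 9 subunit genes included the member with the smallest p after Lrrc16a. Arpc1b encodes 1 of 2 alternative forms of the ARPC1 subunit. It was at 267.1 and 247.4 FPKM in control and at 191.9 and 200.2 FPKM in knockout. Both knockout libraries were below both control libraries, at 76.2% of the control mean. The log2 difference was -0.39 (95% interval -0.57 to -0.21), which missed the threshold with a limma adjusted p = 0.0723. It was 0.0495 after each library was scaled to the same summed FPKM, 0.166 without the filter on low values, and 0.229 to 0.340 with a library left out. The authors' deposited table calls Arpc1b lower, with a log2 fold change of -0.44 and q = 1.76e-09.

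Arpc1a, the other ARPC1 gene, lies 5499 bases before Arpc1b on the plus strand of chromosome 5 (145083869 to 145108756 for Arpc1a, 145114256 to 145128186 for Arpc1b, mm10). It was at 285.4 and 280.6 FPKM in control and at 263.0 and 264.0 FPKM in knockout. Its groups did not overlap either, but the log2 difference was -0.10 (95% interval -0.26 to 0.06, limma adjusted p = 0.582). The Arpc1a share of the pair's summed FPKM was 51.7% and 53.1% in control and 57.8% and 56.9% in knockout. With 2 against 2 samples an exact two-sided permutation test cannot go below p = 0.333, which is the p of this shift. Exons of Arpc1b share 931 of their 5115 annotated bases with Pdap1, a gene on the opposite strand. Within the shared bases, reads of Arpc1b and Pdap1 cannot be told apart if strand is not recorded. Pdap1 was at 44.8 and 41.9 FPKM in control and at 47.3 and 42.1 FPKM in knockout (log2 difference 0.04, limma adjusted p = 0.901).

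The stretches just before the start of the ARPC1 genes are shown because the pair is adjacent. Each is the 120 bases upstream of the RefSeq start on GRCm38.p6, the build also called mm10, written 5′ to 3′ on the gene's strand. Capitals mark GGGCGG or its reverse complement CCGCCC, the GC box bound by Sp family factors.
Arpc1a, chr5:145083749-145083868, plus strand: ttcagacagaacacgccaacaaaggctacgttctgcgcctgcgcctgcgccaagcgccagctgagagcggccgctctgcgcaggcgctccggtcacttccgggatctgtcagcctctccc
Arpc1b, chr5:145114136-145114255, plus strand: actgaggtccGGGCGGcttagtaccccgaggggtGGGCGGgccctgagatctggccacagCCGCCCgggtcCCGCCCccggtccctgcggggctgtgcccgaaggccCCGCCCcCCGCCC
The Arpc1b stretch holds 6 GC boxes that do not overlap each other, and the Arpc1a stretch holds 0. Among the 38 members with a RefSeq promoter entry, 68.4% have a GC box within 250 bases upstream, against 35.4% of all 27025 genes in that table. The 27025 genes were not limited to those expressed here, and a gene with several starts was counted if any of them had a box. These are matches of letters and do not show binding. A link between the boxes and the difference of either gene was not tested.

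The other 7 Arp2/3 genes did not pass. Actr3 and Arpc4 were higher in both knockout libraries than in both control libraries, with log2 differences of 0.11 each. Actr2, the second actin-related subunit, was lower in both, with a log2 difference of -0.08. Arpc2, Arpc3, Arpc5 and Arpc5l had overlapping groups and log2 differences from -0.09 to 0.002. Levels of the 9 genes were unequal, from Arpc5l at a mean of 32.7 FPKM to Arpc1a at 273.3 FPKM. Arpc5 and Arpc5l, like Arpc1a and Arpc1b, are paralogues, and Arpc5 held 77.9% to 79.2% of its pair over the 4 libraries. Of the genes outside these pairs, Arpc4 was lowest at a mean of 59.4 FPKM and Arpc3 highest at 173.85 FPKM. The assembled complex holds its subunits in equal number. The 9 genes summed to 1165 and 1142 FPKM in control and to 1084 and 1045 FPKM in knockout. Arpc1b held the greater part of that gap.

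The activators of Arp2/3 showed no call. Of 9 genes of N-WASP and the WAVE complex, 0 were called and 0 had an unadjusted p under 0.05 by limma, and the authors' deposited table calls none of them. Log2 differences ran from -0.10 (Wasf2) to 0.16 (Abi1). Cyfip2, the most abundant of them, encodes the WAVE subunit that binds Rac1. It was at 288.9 and 290.6 FPKM in control and at 311.4 and 305.7 FPKM in knockout. The knockout libraries were both higher, but the log2 difference of 0.09 did not pass (95% interval -0.07 to 0.25, limma adjusted p = 0.640). Nckap1, a scaffold of the complex, had overlapping groups and a log2 difference of 0.08.

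Paralogues within the WAVE complex were used very unequally. Cyfip1, the alternative to Cyfip2, made up 6.71% to 7.36% of the summed FPKM of the pair over the 4 libraries. Wasf1, which encodes WAVE1, held 73.0% and 73.97% of the 3 WAVE genes in control and 74.99% and 74.5% in knockout. Wasf2 held 14.9% to 16.7% and Wasf3 9.81% to 10.3% over all libraries. Abi1 held 39.4% and 40.2% of the Abi1 and Abi2 sum in control and 44.7% and 42.1% in knockout. The WAVE1 and CYFIP2 forms thus led in all 4 libraries. Wasl, the N-WASP gene, was at 19.8 and 21.5 FPKM in control and at 19.1 and 20.5 FPKM in knockout, with overlapping groups.

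Ena/VASP proteins lengthen filaments at their growing ends and hold off capping protein. Vasp was the 1 member with an unadjusted p under 0.05 in the upward direction. It was at 15.5 and 13.02 FPKM in control and at 17.3 and 16.6 FPKM in knockout. The groups did not overlap, but the control libraries differed from each other by about as much as the group means did. The log2 difference was 0.24 (95% interval 0.01 to 0.46, unadjusted p = 0.0406) and did not pass (limma adjusted p = 0.333). Evl, the most abundant of the family, was at 40.4 and 36.1 FPKM in control and at 36.4 and 37.9 FPKM in knockout, with overlapping groups and a log2 difference of -0.04. Enah had a log2 difference of 0.13 (limma adjusted p = 0.523).

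Profilins, fascin and cortactin did not pass either. Pfn1 was at 433.7 and 420.8 FPKM in control and at 444.6 and 469.2 FPKM in knockout, a log2 difference of 0.10 (limma adjusted p = 0.639). Pfn2, the form known from brain, had overlapping groups and a log2 difference of 0.02. Pfn1 held 62.1% to 64.2% of the profilin sum over the 4 libraries. Fscn1, which bundles filaments into stiff protrusions, was at 562.5 and 546.5 FPKM in control and at 498.1 and 561.2 FPKM in knockout. Knockout replicate 1 was low and replicate 2 lay within the control values, and the log2 difference was -0.07 (limma adjusted p = 0.809). The authors' deposited table calls it lower, with a log2 fold change of -0.19 and q = 0.0484. Cttn, cortactin, which steadies branches, had a log2 difference of -0.09 with overlapping groups.

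Cofilin and its relatives sever filaments and were close to equal in both groups. Cfl1, the main cofilin gene, was at 1377 and 1308 FPKM in control and at 1347 and 1362 FPKM in knockout. Both knockout values fell between the control values, and the log2 difference was 0.01 (95% interval -0.15 to 0.18, limma adjusted p = 0.966). It made up 63.6% to 65.3% of the summed FPKM of the 12 disassembly genes, so that sum mostly follows 1 gene. Dstn, which encodes destrin (ADF), was at 172.7 and 183.04 FPKM in control and at 169.4 and 163.4 FPKM in knockout, a log2 difference of -0.09 (limma adjusted p = 0.648). Cfl2, the cofilin known from muscle, held 3.52% to 4.38% of the sum of the 3 genes and had a log2 difference of 0.04.

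Gelsolin cuts and then caps filaments and is abundant in myelinating oligodendrocytes. Gsn was at 44.3 and 41.97 FPKM in control and at 40.5 and 42.5 FPKM in knockout. The groups overlapped, and the log2 difference was -0.05 (95% interval -0.22 to 0.12, limma adjusted p = 0.832).

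Proteins that work with cofilin or turn monomers over showed 0 calls among 6 genes, with 0 at an unadjusted p under 0.05 by limma, and none was called in the authors' deposited table. Cap1, which recycles monomers from cofilin, was at 120.01 and 123.3 FPKM in control and at 113.4 and 109.1 FPKM in knockout. Both knockout libraries were lower, with a log2 difference of -0.13 (95% interval -0.29 to 0.03, limma adjusted p = 0.485). Wdr1, which encodes the cofilin cofactor AIP1, was at 92.6 and 88.7 FPKM in control and at 98.9 and 99.2 FPKM in knockout. It went the other way, with a log2 difference of 0.13 (limma adjusted p = 0.492). Coro1c, a coronin, was lower in both knockout libraries by -0.09, while Coro1b, Twf1 and Twf2 had overlapping groups and log2 differences of 0.04, 0.002 and -0.08.

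Of the kinases and phosphatases that set the activity of cofilin, Limk2 was the most abundant. Limk2 was at 15.07 and 15.2 FPKM in control and at 16.8 and 17.2 FPKM in knockout. Its groups were apart by more than their small spread, but the log2 difference of 0.16 did not pass (unadjusted p = 0.0526, limma adjusted p = 0.371). Limk1 was higher in both knockout libraries too, with a log2 difference of 0.08. Ssh1 was at 5.95 and 5.08 FPKM in control and at 5.71 and 5.83 FPKM in knockout, and Ssh2 had a log2 difference of 0.07. The ratio of summed LIM kinase to summed slingshot FPKM was 1.94 and 2.11 in control and 2.097 and 2.15 in knockout. These values overlapped. The phosphorylation of cofilin was not measured.

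The supply of monomers was high in every library. Actb was at 1407 and 1497 FPKM in control and at 1540 and 1660 FPKM in knockout, and Actg1 was at 1880.5 and 1978 FPKM in control and at 1938 and 2125 FPKM in knockout. Actb was higher in both knockout libraries and Actg1 overlapped. Neither passed, with log2 differences of 0.14 and 0.07 (limma adjusted p = 0.505 and 0.779). The transcripts of the actins are much alike and reads could be split between them and their pseudogenes, so each value is uncertain. The gamma form led, with Actb at 42.8% and 43.1% of the pair in control and 44.3% and 43.9% in knockout. Thymosin genes came next among the genes of monomer supply. Tmsb4x was at 747.7 and 735.0 FPKM in control and at 840.5 and 743.7 FPKM in knockout, with the difference carried by knockout replicate 1 (log2 difference 0.09, limma adjusted p = 0.715). Tmsb10 was the member with the widest spread in control, at 732.1 and 561.1 FPKM, and was at 668.1 and 607.7 FPKM in knockout (log2 difference -0.01).

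A promoter stretch of Actg1 is shown because it holds a CArG box, the site of serum response factor, a known regulator of actin genes. The 120 bases upstream of its RefSeq start (GRCm38.p6) are written on the gene's strand, with the box in capitals.
Actg1, chr11:120348496-120348615, minus strand: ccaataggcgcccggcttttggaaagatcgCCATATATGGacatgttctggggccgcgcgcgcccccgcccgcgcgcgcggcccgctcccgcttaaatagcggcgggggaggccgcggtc
Within 250 bases upstream, 2 of the 38 members with an entry had such a box (Actg1 and Arpc4). The share was 1.62% over all genes in the table, expressed here or not. The box reads the same on both strands, and a match does not show binding.

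Assembly and disassembly genes were then set side by side. The median log2 difference was 0.002 over the 27 assembly genes and 0.007 over the 12 disassembly genes, against 0.005 over all genes tested. With a library left out, the assembly median ranged from -0.008 to 0.043 and the disassembly median from -0.038 to 0.001. Neither the signs of these medians nor their order held in every case. Of the assembly genes 14 had a positive and 13 a negative difference, and of the disassembly genes 7 were positive and 5 negative. The assembly genes ranged from -0.39 to 0.24 and the disassembly genes from -0.13 to 0.13. Lrrc16a, the called member at -1.27, was counted with the capping genes and so is on neither side. It does not enter these ranges or the sums and ratios below. The summed FPKM of assembly genes was 3229 and 3197 in control and 3141 and 3177 in knockout. That of disassembly genes was 2115 and 2057 in control and 2073 and 2087 in knockout. The assembly sum was thus slightly lower in both knockout libraries, by less on average than the difference of Arpc1b alone, and the disassembly sum overlapped. The ratio of these sums was 1.53 and 1.55 in control and 1.52 and 1.52 in knockout, again slightly lower in both. Without Cfl1 it was 4.38 and 4.27 in control and 4.32 and 4.38 in knockout, with overlapping groups. The mean log2(FPKM + 1) of assembly minus that of disassembly genes, which weights genes equally, was 0.07 and 0.09 in control and 0.12 and 0.07 in knockout. Here the groups overlapped too.

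**Figure D3:**
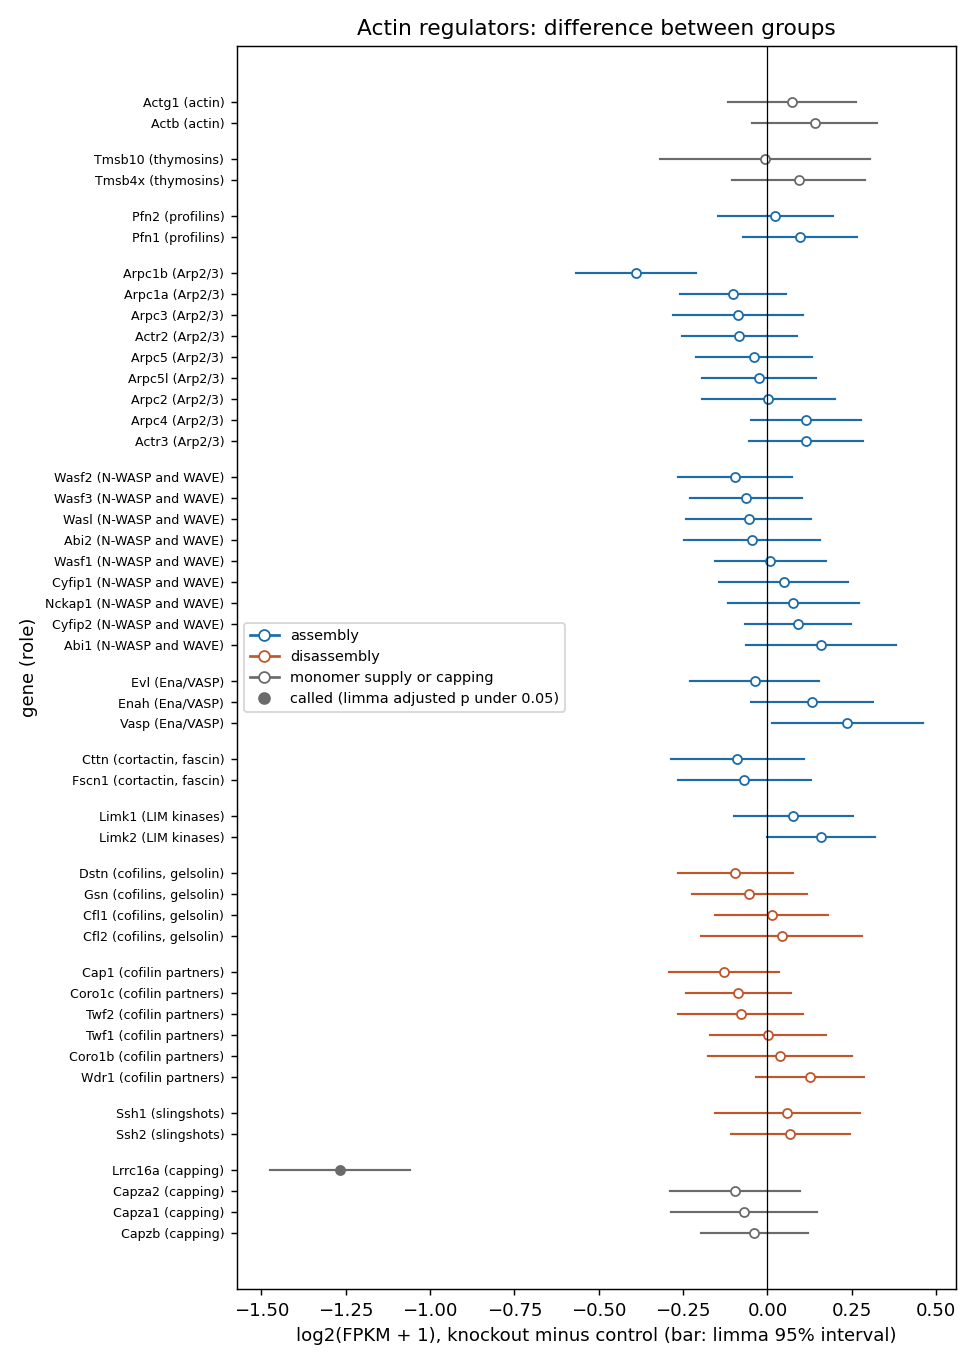
Log2(FPKM + 1) difference, knockout minus control, of the 47 genes by role, with limma 95% intervals over 2 libraries a group; blue marks assembly, orange disassembly and grey monomer supply or capping, and a filled point marks a call. Lrrc16a stands alone at -1.27, Arpc1b follows at -0.39, and Vasp at 0.24 is the remaining gene whose interval leaves out 0.

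How large a change could have been missed was read from the intervals. Among the 46 genes not called, the lowest bound was -0.57 and the highest 0.46. The distance from the estimate to either bound had a median of 0.18 and ranged from 0.16 to 0.31. For 45 of the 46 the whole interval lay within -0.5 and 0.5. Of the 46, 44 differed by less than 0.2 on the log2 scale, as did 83.8% of all genes tested and 87.0% of the tested genes in the members' range of levels. The missed threshold does not show that these levels were equal, but differences beyond those bounds lie outside the intervals.

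Shares among paralogues are a further view of the same values. Shares were computed for 21 genes in 15 groups, and 0 could pass a test with 2 against 2 samples (exact two-sided permutation, smallest p = 0.333, adjusted p at least 0.7 over the 21). The largest shifts were in the Arpc1a share, by 4.94 percentage points, the Abi1 share, by 3.64, and the Evl share among Ena/VASP genes, which was 45.6% and 44.7% in control and 40.2% and 42.95% in knockout. Shares of Arpc5, Wasf2, Cyfip1, Cfl1, Cfl2, Twf1, Ssh1 and Capza1 overlapped between groups and differed by under 1 percentage point in the mean. Evl was above Enah in 3 of the 4 libraries and just below it in knockout replicate 1.

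**Figure D4:**
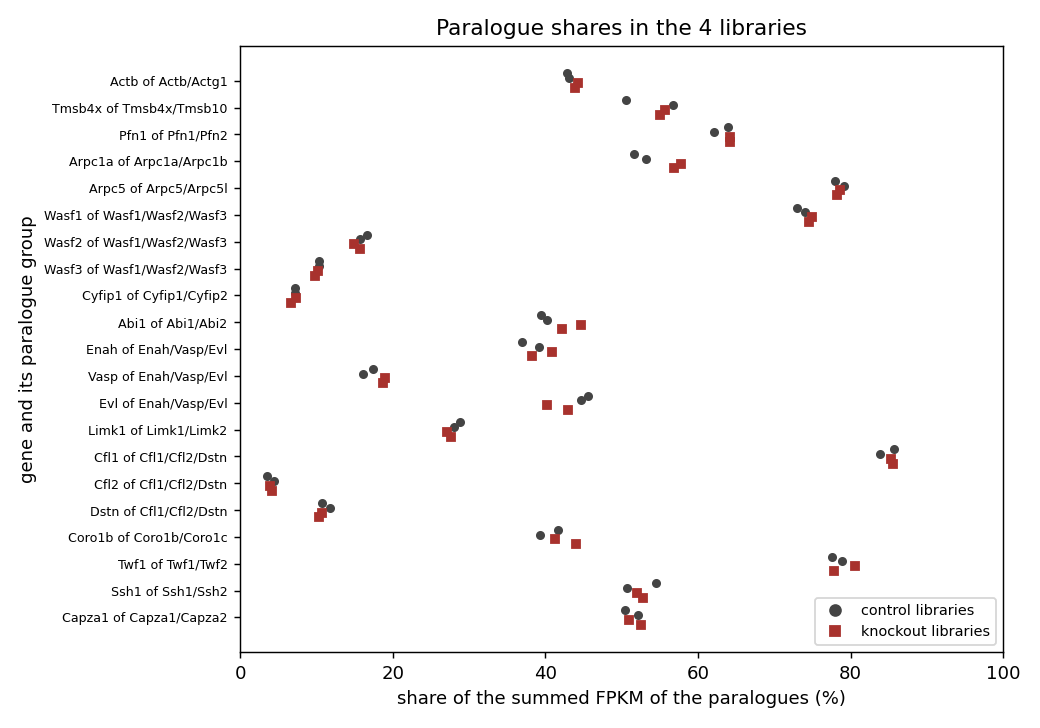
Share (%) of each gene in the summed FPKM of its paralogue group, with 1 point per library (grey circles control, red squares knockout; of pairs only 1 gene is drawn). The shares of most genes overlap or nearly touch between groups; the Arpc1a share is 51.7% and 53.1% in control and 57.8% and 56.9% in knockout.

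Other genes of the actin cytoskeleton were taken from a wider list of 114 genes, of which 89 were tested: small GTPases and their kinases, formins, further WASP family and Arp2/3 regulators, capping and severing proteins, crosslinkers and membrane-bending adaptors. By limma 1 rose and 0 fell, and the first count was 0 when any library was left out. An unadjusted p under 0.05 was found for 8 with a higher and 6 with a lower level, where 7.13% and 6.58% of all genes tested had one. The median log2 difference over the 89 genes was -0.02.

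The most abundant gene of each group in the wider list did not pass. Rnd2, a small GTPase, was at 1191 and 1034 FPKM in control and at 924.2 and 1006 FPKM in knockout (log2 difference -0.20, limma adjusted p = 0.415). Fmnl2, a formin, was at 90.8 and 91.1 FPKM in control and at 79.4 and 73.9 FPKM in knockout (log2 difference -0.24, limma adjusted p = 0.194). Both were lower in both knockout libraries, and the authors' deposited table calls both lower (q = 7.61e-05 and 0.00630). Add1, which encodes adducin, a capping protein of the membrane skeleton, had a log2 difference of -0.19 and Pak2, a kinase activated by Rac and Cdc42, of -0.18, and the authors' deposited table calls these lower too (q = 0.00709 and 0.0379). Those of Brk1, the small WAVE subunit, Dbn1, drebrin, Marcksl1 and Mtss1l were 0.02, -0.12, -0.06 and 0.04. In all, the authors' deposited table calls 9 of 96 genes of the wider list lower and 4 higher, where it calls 4.04% and 1.74% of all its genes.

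Several actin regulators are also strongly expressed in microglia and in contractile cells. Of 8 microglia and macrophage markers tested 3 rose (Tyrobp, Laptm5 and Fcrls), and all 8 had a positive log2 difference. Among the markers too low to test, Csf1r, Cx3cr1, Aif1, Ptprc and Itgam were higher in both knockout libraries. Cd68 overlapped between groups, as did P2ry12 and Trem2, which were at 0.05 to 0.18 FPKM in every library. The authors' deposited table calls Laptm5, Fcrls, Ctss, Cx3cr1 and Aif1 higher, but not Tyrobp. Of the 3 fibroblast and mural cell markers tested, Tagln and Acta2 rose. Cspg4, the remaining 1, was at 3.11 and 3.07 FPKM in control and at 3.64 and 4.14 FPKM in knockout and did not pass (limma adjusted p = 0.273). Rgs5, under 1 FPKM in every library and not tested, overlapped between groups. The collagens Col1a1, Col1a2 and Col3a1, with Dcn, Lum and Pdgfrb, were under 1 FPKM in every library, were not tested, and were lower in both knockout libraries. The part of these cells in the levels of Lrrc16a, Arpc1b or the other members was not tested.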

How the data were processed

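RNA of 4 samples (2 Ctrl, 2 lncOL1KO) was sequenced with TruSeq RNA libraries, per the labels' protocols. CASAVA, TopHat, Cufflinks and Cuffdiff are named with the build mm10, per the submitters' processing notes. Versions, annotation and strand setting were not given in the sources used here. Deposited by the authors were 1 table of FPKM per sample (23931 rows) and 1 Cuffdiff table, whose p-values, q-values and log2 fold changes (a score, as infinite values are written as a number) are quoted as the authors' deposited values. Start positions from the files were raised by 1 to count from 1.

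Rows of a symbol were summed (258 symbols) and 9 were left out because a status was not OK. Genes averaging 1 FPKM or more over all samples were fitted as log2(FPKM + 1) with limma 3.58.1 in R 4.3.3 (eBayes with trend, 2 residual and 4.6 prior degrees of freedom). On simulated data over 11361 genes the fit recovered 45.5% and 95.5% of genes simulated with log2 changes of 0.5 and 1, with 9 of 170 calls false. The noise was normal, with a spread drawn from limma's own fit. These rates therefore hold only as far as the libraries follow that model. Relative depth, from the commonest ratio among 562 low rows, was 0.94 to 1.18 of control replicate 1.

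The members, roles and gene lists were chosen with earlier results of these data known, so no test was run over a list. Values were given for called members, the most abundant member of each role and those with the smallest p under 0.05, with paralogues and remaining members in brief. The wider list was matched by symbol or RefSeq synonym (12 genes); the values of the gene called in it are not reported here. Of 47 members, 38 had a RefSeq promoter entry. Exons overlapped by an opposite-strand gene (GENCODE M21) concern 14 members, among them Cfl1, Arpc1a, Arpc1b, Cap1, Coro1b and Wdr1. Within the shared bases, reads cannot be told apart from that gene's without strand. For Arpc1a that gene is Kpna7, which shares 50 of 2567 exon bases and was at 0 FPKM in all 4 libraries.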

Additional observations from a re-analysis of the deposited data

How the results depend on the processing

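The counts of called members and wider-list genes, the medians of both sides and the named genes of those lists were recomputed with a pseudocount of 0.1, without the filter, after TPM scaling or quantile normalization, with a replicate block, without the trend, with 1 row per symbol, and without each library. Of the paralogue shares, that of Arpc1a was recomputed with 1 row per symbol and without each library (4.20 to 5.68 percentage points). Sums, ratios, markers, neighbours, Lrrc16b and Pdap1 were not recomputed. The count of lower members was 1; it was 0 without the filter (17397 genes tested, Lrrc16a adjusted p = 0.0600), 2 after TPM scaling and 2 with the replicate block (Lrrc16a and Arpc1b both times), and 0 to 1 with a library left out. With the minimum of 1 FPKM applied again to the 3 libraries left, chosen after seeing the data, it was 1 each time. No member was called higher by limma under any alternative. In the wider list the count of higher genes was 1, but 0 without filtering and 0 when any library was left out, and the count of lower genes was 0, but 1 with the replicate block. Over all genes, 60 were called higher and 89 lower; the counts were 85 and 116 with a pseudocount of 0.1, 80 and 115 after TPM scaling, 158 and 183 with the replicate block, 1 and 3 without the filter, and 11 to 16 and 5 to 26 with a library left out. Deviations of same-numbered samples correlated at -0.05 over genes, so the numbers do not show a pairing. The cause of these changes was not tested, other than that fewer samples or more genes were fitted.

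No log2 difference of a named gene changed sign under another scaling, pseudocount or filter. With a library left out, 17 members and 2 other genes did in at least 1 case. Their ranges were -0.20 to 0.18 (Tmsb10), -0.013 to 0.059 (Pfn2), -0.089 to 0.093 (Arpc2), -0.091 to 0.012 (Arpc5), -0.059 to 0.0096 (Arpc5l), -0.11 to 0.00042 (Wasl), -0.032 to 0.048 (Wasf1), -0.034 to 0.13 (Cyfip1), -0.14 to 0.043 (Abi2), -0.12 to 0.041 (Evl), -0.15 to 0.017 (Fscn1), -0.024 to 0.050 (Cfl1), -0.092 to 0.18 (Cfl2), -0.041 to 0.12 (Coro1b), -0.053 to 0.057 (Twf1), -0.036 to 0.15 (Ssh1), -0.18 to 0.043 (Capza1), -0.14 to 0.027 (Marcksl1) and -0.051 to 0.12 (Mtss1l). Read numbers are not in the tables, so the limit set by depth could not be computed.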

Other observations

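A few actin regulators known from blood-derived cells lay below the filter of 1 FPKM and were named after their values were seen. Lcp1, which encodes L-plastin, was at 0.63 and 0.63 FPKM in control and at 1.38 and 1.146 FPKM in knockout, and Hcls1, a relative of cortactin, was at 0.41 and 0.20 FPKM in control and at 0.86 and 0.95 FPKM in knockout. The authors' deposited table calls both higher (q = 0.0384 and 0.0180). Nckap1l, the form of Nckap1 known from blood cells, was at 0.19 and 0.15 FPKM in control and at 0.46 and 0.36 FPKM in knockout. Of other genes of the wider list under 1 FPKM in every library, Was was higher in both knockout libraries, while Abi3, Gmfg and Fmnl1 overlapped. Coro1a, a coronin known from the same cells, lay above the filter and was not called (limma adjusted p = 0.737). Its groups overlapped, at 9.81 and 7.62 FPKM in control and at 9.08 and 9.96 FPKM in knockout.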
